A study of Mus musculus with 12 samples.

Results

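Heat shock and unfolded protein response genes were followed in mouse bone marrow-derived macrophages across 4 groups of arrays. The set was defined by name as 49 genes, and a gene was used where a row of the deposited table carried its symbol and no other. Of the 49 genes, 45 had such a row, out of 22180 genes with a row in all. Hsp90ab1, Hsf1, Dnaja1 and Pdia4 had none and were not analysed here. Where a gene had several rows, which held for Hspa8, Hspb1 and Edem1, the brightest of them by its mean on the 12 arrays was taken.

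The macrophages were grown in medium conditioned by L929 cells, a fibroblast line that secretes the macrophage growth factor M-CSF. Wild-type mice were compared with Rasgef1b_fl/fl_vav-icre mice, in which an improved Cre recombinase driven by the Vav promoter, active in blood-forming cells, removes a floxed part of Rasgef1b, which encodes an activator of small GTPases of the Ras family. Both genotypes were given saline or R848, a small molecule that activates TLR7 in endosomes. A time of 4 h was stated for R848 and none for saline. Each of the 4 groups (wild-type saline, wild-type R848, knockout saline, knockout R848) had 3 arrays. No group carried the Cre alone, so an effect of Cre and the loss of Rasgef1b cannot be told apart. All values are log2 signals on which a difference of 1 is a doubling, and differences are given as limma estimates with their standard error (SE).

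The heat shock response is driven by heat shock factors, which bind repeated units in promoters and raise cytosolic chaperones when unfolded proteins accumulate outside the secretory pathway. The unfolded protein response is its counterpart in the endoplasmic reticulum. Its sensors are the kinase and RNase Ern1 (IRE1), which splices the Xbp1 message, the kinase Eif2ak3 (PERK), which phosphorylates eIF2alpha and favours translation of Atf4, and the membrane-bound factor Atf6, which is released by cleavage. Splicing of Xbp1, cleavage of Atf6 and translation of Atf4 act after transcription and are not read by the array rows. In macrophages Toll-like receptor signals are known to feed into parts of this network.

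Promoter sequences are shown for 7 genes, because they carry the elements by which these programmes are usually told apart. They come from RefSeq (GRCm38.p6), end at the base before the start of transcription, and read 5' to 3' on the gene's strand. Capitals mark the letters of a matched element. Hspa1a (chr17:34972157-34972306, minus strand), Hspa1b (chr17:34959239-34959388, minus strand) and Hspe1 (chr1:55087998-55088147, plus strand) hold heat shock units. Hspa5 (chr2:34771940-34772089, plus strand), Hsp90b1 (chr10:86705445-86705684, minus strand) and Creld2 (chr15:88819496-88819645, plus strand) hold the endoplasmic reticulum stress element. Herpud1 (chr8:94386279-94386428, plus strand), the unfolded protein gene among the 45 that rose most, holds TTGCATCA, a site type bound by Atf4 with C/EBP factors, and a second form of the stress element.
Hspa1a: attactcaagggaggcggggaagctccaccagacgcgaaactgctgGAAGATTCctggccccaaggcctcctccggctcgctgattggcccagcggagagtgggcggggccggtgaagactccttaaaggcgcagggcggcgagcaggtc
Hspa1b: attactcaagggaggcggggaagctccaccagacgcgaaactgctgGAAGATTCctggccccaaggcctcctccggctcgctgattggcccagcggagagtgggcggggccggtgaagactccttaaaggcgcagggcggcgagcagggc
Hspe1: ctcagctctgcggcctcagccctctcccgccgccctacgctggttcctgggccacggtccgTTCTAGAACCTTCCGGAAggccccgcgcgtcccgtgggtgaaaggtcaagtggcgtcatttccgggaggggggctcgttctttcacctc
Hspa5: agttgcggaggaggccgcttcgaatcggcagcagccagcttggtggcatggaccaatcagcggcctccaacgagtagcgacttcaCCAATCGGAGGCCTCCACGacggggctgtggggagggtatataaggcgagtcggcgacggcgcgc
Hsp90b1: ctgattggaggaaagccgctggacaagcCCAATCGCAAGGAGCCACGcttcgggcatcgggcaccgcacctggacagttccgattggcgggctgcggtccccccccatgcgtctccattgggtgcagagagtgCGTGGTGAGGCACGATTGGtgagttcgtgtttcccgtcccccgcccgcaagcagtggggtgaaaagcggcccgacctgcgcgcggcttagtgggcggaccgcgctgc
Creld2: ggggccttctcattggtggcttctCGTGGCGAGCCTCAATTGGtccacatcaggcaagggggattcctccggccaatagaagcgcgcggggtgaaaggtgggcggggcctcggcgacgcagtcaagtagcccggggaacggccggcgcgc
Herpud1: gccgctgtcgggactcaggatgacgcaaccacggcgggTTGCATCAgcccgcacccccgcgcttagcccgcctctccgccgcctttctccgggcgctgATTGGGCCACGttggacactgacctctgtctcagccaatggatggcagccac

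The promoter table held 41 of the 49 genes, 39 of them with an array row, each with 250 bases before and 50 after a start. Both strands were searched. An inverted pair of heat shock units, GAANNTTC or TTCNNGAA, was found in 12 of the 41 genes (29.3%), against 17.0% of all 27025 genes in the table. The same pair extended by another alternating unit, which overlaps the pair by construction, was in Hsph1, Hspd1, Hspe1 and Chordc1 (9.76%, against 0.662% of all genes). The stress element, CCAAT and CCACG with 9 bases between, was in Hspa5, Hsp90b1, Dnajc3, Syvn1, Pdia6, Calr, Canx and Creld2, which is 8 of 41 (19.5%, against 0.137% of all genes). Its second form, ATTGG and CCACG with 1 base between, was in Dnajb11 and Herpud1 (4.88%, against 0.0444%). That form was added after the printed promoters, Herpud1 among them, had been read, so its shares are not a fair comparison. TTGCATCA was in Herpud1 and Chac1 (4.88%, against 1.03%), and TGACGTGG was in 0 of 41 (0.714% of all genes). A match describes these letters only and is not evidence of binding. Hspa1a and Hspa1b, neighbouring copies on chromosome 17, were identical at 149 of the 150 bases shown. Hspd1 and Hspe1 are transcribed away from each other on chromosome 1, and the window of 1 listed Hspd1 start shared 285 of its 300 bases with that of Hspe1, so the heat shock units printed for Hspe1 lie before both genes for that start. The window of the other listed Hspd1 start held 0 such pairs.

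All 8 listed macrophage markers lay above the dim limit of 4.35 in every group, while all measured B cell, T cell and mast cell markers lay below it. Above it in every group were also 3 of 5 fibroblast markers (highest group mean 5.38) and 2 of 3 erythroid markers (5.04). The same held for 2 of 8 neutrophil markers (5.19) and 3 of 5 dendritic cell markers (9.23). Of the 8 neutrophil markers 5 lay below 4.31, the lowest dim limit of any array, in every group. The level of that list, as a mean per array, ranged from 3.82 to 3.94 with saline in wild type. With R848 it ranged from 3.85 to 3.97 there. In knockout the ranges were 3.9 to 3.92 with saline and 3.98 to 4.0 with R848. Dendritic cell markers averaged 5.19 to 5.37 and 5.28 to 5.29 in wild type, and 5.40 to 5.52 and 5.34 to 5.37 in knockout, with Cd209a at 8.70 to 9.23. Single markers moved with the groups: with R848 Mertk fell by 1.79 in wild type and 1.92 in knockout, Csf1r and Fcgr1 also fell in both and Cd14 and Adgre1 rose. In knockout Cd209a fell by 0.51 with R848 (limma adjusted p = 0.00202) and S100a9, a neutrophil marker, rose by 0.32 (adjusted p = 0.0119). Elane, the other neutrophil marker above the limit in every group, fell there by 0.20 (adjusted p = 0.033). Averaged over treatments S100a9 was higher in knockout (0.30, adjusted p = 0.0375) and Elane did not pass (0.02, adjusted p = 0.902). The part of these markers in the results below was not tested. Rasgef1b itself was 9.03, 9.19 and 9.14 with saline and 9.84, 9.84 and 9.69 with R848 in wild type. It was 8.63, 7.88 and 8.72, then 9.45, 8.60 and 9.36, in knockout, so signal remained there. Its knockout difference passed as an average over treatments (-0.68 ± 0.15, adjusted p = 0.036) and did not with saline or R848 alone (adjusted p = 0.158 and 0.333), and whether its probes lie in the deleted part was not tested. All 45 genes passed the filter on dim signal, and 43 lay above the limit on all 12 arrays. The exceptions were Hspa1b on 1 wild-type saline array and Dnajb4 on 1 wild-type R848 array. The pooled SD within groups had a median of 0.10 over the 45 genes and 0.11 over all tested genes, and was largest for Hspa1b at 0.32.

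R848 moved genes of this set in both directions. The inducible Hsp70 genes, the Hsp90 cochaperone Stip1, Atf4 with its outputs Ppp1r15a and Chac1, and the degradation factor Herpud1 were higher with R848 in both genotypes. Lower in both were the Hsp110-family genes Hsph1 and Hspa4l, the cochaperones Ahsa1 and Fkbp4, the sensors Eif2ak3 and Atf6, and several chaperones of the endoplasmic reticulum. In wild type 12 of the 45 were higher, where 14.6% of the 14079 tested genes were, and 14 were lower, where 23.6% were (limma, Benjamini-Hochberg adjusted p under 0.05). In knockout 11 were higher (background 15.6%) and 13 lower (background 26.0%). The median difference of the set was -0.01 in wild type and 0.05 in knockout, beside -0.02 and -0.03 over all tested genes. Saline and R848 arrays did not overlap for 25 of the 45 in wild type (48.1% of all tested genes) and 29 in knockout (48.8%).

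The split between higher and lower calls depended on the scaling of the arrays. Centring each array on its median shifted the middle of all tested genes to 0.11 in wild type (from -0.02) and to 0.12 in knockout (from -0.03). With it, 17 members were higher and 10 lower in wild type and 23 higher and 9 lower in knockout. After cyclic loess the counts were 13 and 13, and 19 and 11. Among all tested genes the share of calls that were higher was 38.3% in wild type and 37.4% in knockout, against 62.2% and 63.6% with median centring and 48.5% and 49.4% with cyclic loess. No called member changed sign under any alternative. In bulk RNA, fewer responding cells and less RNA per cell cannot be told apart.

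**Figure D1:**
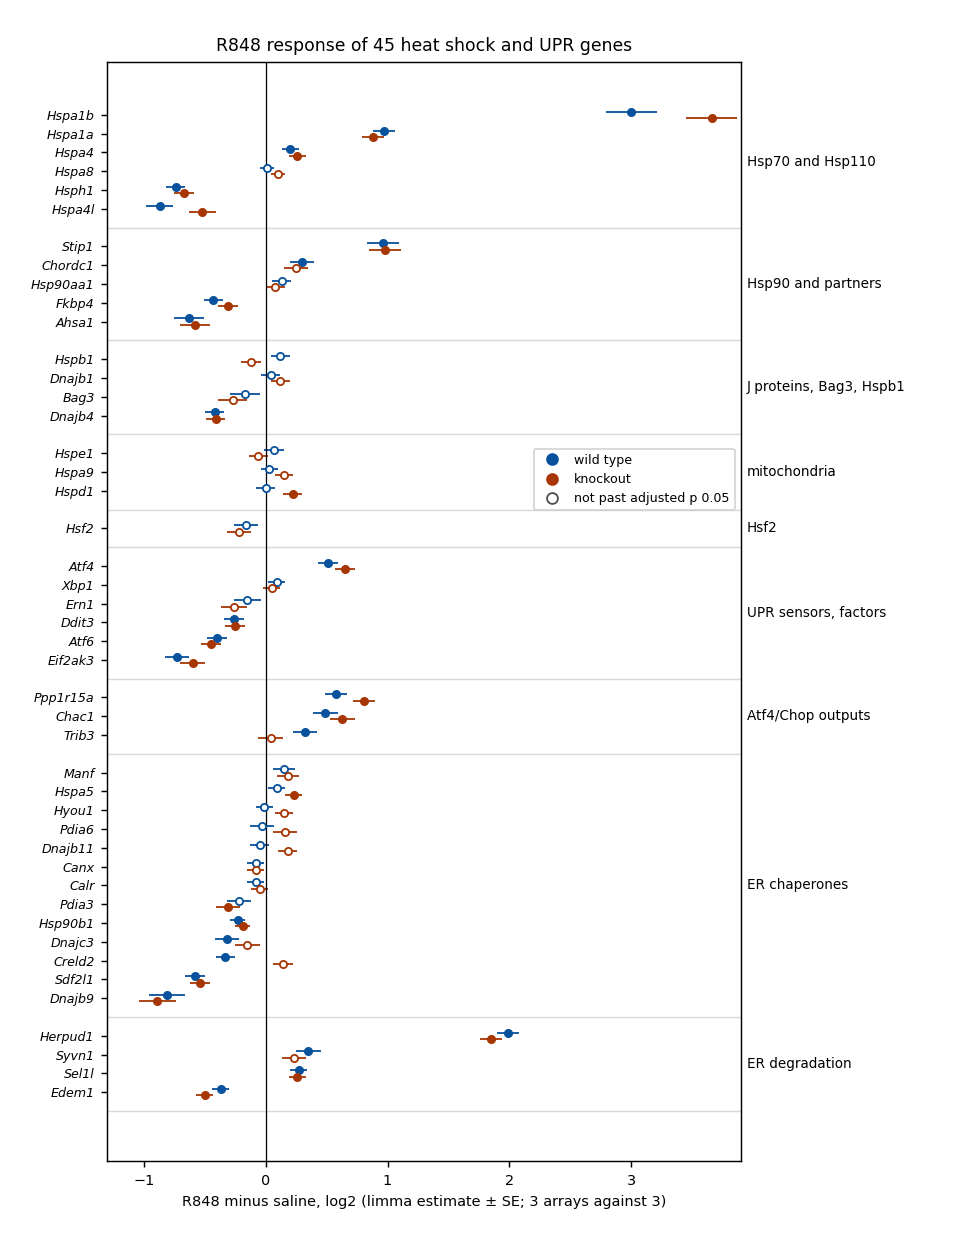
R848 minus saline on the log2 scale (x axis) for each of the 45 genes (y axis, grouped by function), as limma estimate ± SE from 3 arrays against 3, in wild type (blue) and knockout (brown); filled points passed the adjusted p threshold of 0.05. Hspa1b (3.00 and 3.66) and Herpud1 (1.99 and 1.85) stand apart from the other genes, which lie between -0.89 and 0.98.

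Among cytosolic Hsp70 proteins, which fold new and damaged proteins with the help of J proteins, the stress-inducible copies rose in both genotypes. Hspa1b was 4.35, 4.58 and 5.19 on the wild-type saline arrays and 7.39, 8.0 and 7.72 with R848, a rise of 3.00 ± 0.21 or 7.98-fold (limma adjusted p = 2.05e-08). In knockout cells it went from 4.62, 4.45 and 4.41 to 7.80, 8.17 and 8.48, a rise of 3.66 ± 0.21 or 12.6-fold (adjusted p = 1.98e-09). All R848 arrays lay far above all saline arrays, and the lowest saline values were near the dim limit, where a fold change may be understated.

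Hspa1a, the neighbouring copy, was 6.20, 6.16 and 6.47 in wild-type cells with saline and 7.30, 7.31 and 7.13 with R848 (0.97 ± 0.09, adjusted p = 7.59e-07). Its knockout values were 6.71, 6.60 and 6.72, then 7.45, 7.57 and 7.64 (0.88 ± 0.09, adjusted p = 1.99e-06). The saline and R848 arrays of Hspa1a were again fully separate, but its rise was smaller than that of Hspa1b in both genotypes, in spite of the near-identical promoters shown above. The genes are near-identical copies, so probes of either row may read both, and the difference between the rows is uncertain. A further row that the platform pairs with both copies lay under the dim limit, at 3.04 with saline and 3.45 with R848 in wild type.

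Hspa8, the constitutive Hsp70 of the cytosol, was the brightest row of the set at 11.40 ± 0.05 (SD, n = 3) and 11.41 ± 0.03 in wild type, with a difference of 0.01 (95% interval -0.13 to 0.15, adjusted p = 0.927). Its knockout difference was 0.10 (adjusted p = 0.229), with saline at 11.31 to 11.37 and R848 at 11.40 to 11.48, and was called after median centring (0.25, adjusted p = 0.00844) and cyclic loess (0.17, adjusted p = 0.0391). The nucleotide exchange factors of the Hsp110 family, which recharge Hsp70, did not move as one. Hsph1 fell from 7.21, 6.92 and 7.15 to 6.35, 6.27 and 6.45 in wild type (-0.74 ± 0.08, adjusted p = 4.33e-06) and from 6.91, 6.91 and 6.86 to 6.21, 6.18 and 6.27 in knockout (-0.67 ± 0.08, adjusted p = 9.94e-06). Hspa4l fell by 0.87 ± 0.11 in wild type and by 0.52 ± 0.11 in knockout (adjusted p = 1.22e-05 and 0.00121). Hspa4 was higher by 0.20 ± 0.07 and 0.26 ± 0.07, a small rise whose wild-type call (adjusted p = 0.0338) ended in a fit of the 6 compared arrays and without 5 single wild-type arrays, saline replicates 1 and 2 and R848 replicates 1, 2 and 3 (highest adjusted p = 0.137).

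Hsp90 and its cochaperones, which mature kinases and steroid receptors, also went both ways. Stip1, the adaptor that hands clients from Hsp70 to Hsp90, was 8.29, 8.49 and 8.68 with saline and 9.32, 9.47 and 9.55 with R848 in wild type (0.96 ± 0.13, adjusted p = 3.16e-05). In knockout it was 8.18, 8.22 and 8.70, then 9.24, 9.45 and 9.35 (0.98 ± 0.13, adjusted p = 2.38e-05), so it nearly doubled in both genotypes with no overlap between treatments. Ahsa1, which stimulates the Hsp90 ATPase, moved the other way, from 9.41, 9.62 and 9.61 to 8.83, 8.99 and 8.93 in wild type (-0.63 ± 0.12, adjusted p = 0.000554) and by -0.58 ± 0.12 in knockout. The immunophilin Fkbp4 fell by 0.43 ± 0.08 and 0.31 ± 0.08 (adjusted p = 0.000649 and 0.0066), the latter no longer called after median centring (adjusted p = 0.102). Hsp90aa1, the inducible Hsp90, had differences of 0.13 and 0.08 and did not pass (adjusted p = 0.198 and 0.465). Chordc1, an Hsp90 partner, had 0.30 in wild type (adjusted p = 0.031, up to 0.155 over the alternatives and lost in the 6 compared arrays and without wild-type saline replicate 1 or 2 or R848 replicate 2 or 3) and 0.25 in knockout (adjusted p = 0.0623), called there after median centring (0.40, adjusted p = 0.00527) and cyclic loess (0.31, adjusted p = 0.0186).

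J proteins deliver substrates to Hsp70. Dnajb1, a classical heat shock gene, was 6.48 ± 0.16 (SD, n = 3) and 6.52 ± 0.06 in wild type and 6.35 ± 0.06 and 6.48 ± 0.06 in knockout (adjusted p = 0.741 and 0.271). Dnajb4 fell by 0.42 ± 0.08 and 0.41 ± 0.08 (adjusted p = 0.000708 and 0.000699). Bag3, which links Hsp70 to autophagy, had differences of -0.17 and -0.27 (adjusted p = 0.277 and 0.0742), the latter called with the replicate number as a block over all 12 arrays (adjusted p = 0.0235). The small chaperone Hspb1 had 0.12 and -0.12, with a mean of 5.05 to 5.27 over the groups, and its other row lay under the dim limit. Among the transcription factors that drive these genes, Hsf2 had -0.16 and -0.22 (adjusted p = 0.24 and 0.0895). Beside the 7.98-fold rise of Hspa1b in wild-type cells, Dnajb1, Hsp90aa1, Hspb1 and Bag3 did not pass there and Hsph1 fell, but Hsp90aa1 and Hspb1 were called higher after median centring (0.26 and 0.25, adjusted p = 0.0102 and 0.0195). In knockout cells Hsp90aa1 was called higher after median centring (0.22, adjusted p = 0.0242) and Dnajb1 after median centring and cyclic loess (0.27 and 0.26, adjusted p = 0.0182 and 0.0212).

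The chaperones of the mitochondrial matrix, Hspa9, Hspd1 (Hsp60) and Hspe1 (Hsp10), which fold imported proteins, had wild-type differences of 0.03, -0.00 and 0.07 (adjusted p = 0.771, 0.981 and 0.548). In knockout cells Hspd1 went from 7.03, 7.01 and 6.95 to 7.30, 7.10 and 7.26, a rise of 0.22 ± 0.08 (adjusted p = 0.0384), while Hspe1, which shares its promoter region, had -0.06 (adjusted p = 0.633). Hspa9 had 0.15 there (adjusted p = 0.109), called after median centring (0.30, adjusted p = 0.004) and cyclic loess (0.21, adjusted p = 0.023). The knockout call of Hspd1 ended in a fit of the 6 compared arrays and without any of 6 single arrays, namely wild-type R848 replicate 2, the 3 knockout saline arrays and knockout R848 replicates 1 and 3 (highest adjusted p = 0.134).

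**Figure D2:**
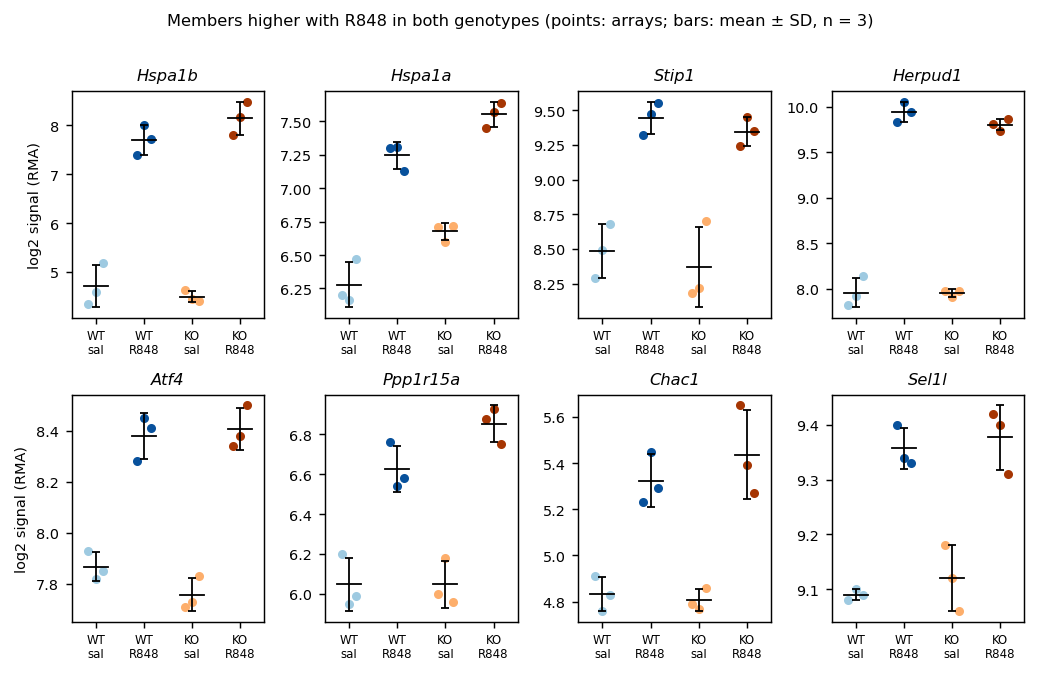
Log2 signal (y axis, own scale for each gene) on every array of the 4 groups (x axis; WT wild type, KO knockout, sal saline) for 8 genes called higher with R848 in both genotypes; points are arrays and bars the mean ± SD of 3. In every panel the R848 arrays of a genotype lie above its saline arrays, from 4.35 to 5.19 against 7.39 to 8.48 for Hspa1b.

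In the unfolded protein response the Atf4 message rose with R848, while those of the sensors Eif2ak3 and Atf6 fell. Ddit3, described below, also fell, with calls that depended on the scaling. Atf4, the factor translated when eIF2alpha is phosphorylated, was 7.93, 7.82 and 7.85 with saline and 8.28, 8.45 and 8.41 with R848 in wild type (0.51 ± 0.08, adjusted p = 6.31e-05). In knockout it was 7.71, 7.73 and 7.83, then 8.34, 8.38 and 8.50 (0.65 ± 0.08, adjusted p = 5.58e-06). All R848 arrays of Atf4 lay above all saline arrays. Eif2ak3, the kinase upstream of it, fell from 6.15, 6.29 and 6.09 to 5.57, 5.40 and 5.38 in wild type (-0.73 ± 0.10, adjusted p = 2.46e-05) and from 6.13, 6.14 and 5.82 to 5.46, 5.49 and 5.33 in knockout (-0.60 ± 0.10, adjusted p = 0.000132). Atf6 fell by 0.40 ± 0.08 and 0.45 ± 0.08 (adjusted p = 0.00097 and 0.000361). Ern1, the third sensor, had -0.15 and -0.26 without passing (adjusted p = 0.338 and 0.0763), and total Xbp1, its splicing target, stood at 9.0 ± 0.08 (SD, n = 3) and 9.09 ± 0.04 in wild type (0.09, adjusted p = 0.328) and had 0.05 in knockout (adjusted p = 0.634). Total Xbp1 was called higher after median centring (0.22 and 0.19, adjusted p = 0.0164 and 0.0331).

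Chop is the factor encoded by Ddit3. Of the 3 members grouped as outputs of Atf4 and Chop, 3 were called higher in wild type and 2 in knockout. Among all tested genes 14.6% and 15.6% were higher. These 3 genes do not stand for all targets of the 2 factors. Ppp1r15a (GADD34), the phosphatase subunit that reverses eIF2alpha phosphorylation, went from 6.20, 5.95 and 5.99 to 6.76, 6.54 and 6.58 in wild type (0.58 ± 0.09, adjusted p = 0.000143) and from 6.0, 6.18 and 5.96 to 6.88, 6.93 and 6.75 in knockout (0.81 ± 0.09, adjusted p = 5.23e-06). Chac1, which degrades glutathione, rose by 0.49 ± 0.10 and 0.63 ± 0.10 (adjusted p = 0.000765 and 7.57e-05). Trib3, a pseudokinase target of Chop, had 0.32 ± 0.10 in wild type (adjusted p = 0.0202, lost without wild-type saline replicate 2 or 3 or R848 replicate 2, up to 0.103) and 0.04 in knockout (adjusted p = 0.79), and the difference between the genotypes did not pass (-0.28, adjusted p = 0.986). Ddit3 itself fell by 0.26 ± 0.08 and 0.25 ± 0.08 (adjusted p = 0.0177 and 0.0178). Both Ddit3 calls ended after median centring and cyclic loess (highest adjusted p = 0.2 and 0.252), the wild-type one also without wild-type saline replicate 1 or 2 or R848 replicate 3, and the knockout one without replicate 2 of either treatment.

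The 13 measured chaperones and folding enzymes of the endoplasmic reticulum moved both ways, with counts that depended on the scaling. In wild type 0 passed as higher and 5 as lower, with a median of -0.08. In knockout 1 was higher and 4 lower, with a median of -0.05. That is 38.5% called in each genotype, near the 38.3% and 41.6% of all tested genes. After median centring 2 were higher and 2 lower in wild type and 6 higher and 2 lower in knockout. Of the 14079 tested genes 3821 were then higher and 2319 lower in wild type, and 4402 and 2516 in knockout. After cyclic loess 1 was higher and 5 lower in wild type, and 4 higher and 3 lower in knockout. All tested genes then had 2613 higher and 2773 lower in wild type, and 2900 and 2972 in knockout. Hspa5 (BiP), the Hsp70 of this compartment and the usual reporter of the response, was 8.63, 8.60 and 8.73 with saline and 8.74, 8.79 and 8.71 with R848 in wild type (0.09, 95% interval -0.06 to 0.25, adjusted p = 0.359), and was called higher there after median centring (0.22, adjusted p = 0.0261). In knockout it went from 8.45, 8.65 and 8.59 to 8.78, 8.81 and 8.79 (0.23 ± 0.07, adjusted p = 0.019, up to 0.0906 and lost without knockout saline replicate 1 or R848 replicate 2). The saline and R848 arrays of Hspa5 overlapped in wild type and not in knockout.

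Dnajb9 (ERdj4), a J protein that serves Hspa5 and a known Xbp1 target, fell from 7.23, 7.63 and 7.08 to 6.54, 6.49 and 6.47 in wild type (-0.81 ± 0.15, adjusted p = 0.000434) and from 7.70, 7.54 and 7.12 to 6.63, 6.68 and 6.39 in knockout (-0.89 ± 0.15, adjusted p = 0.000187). Sdf2l1, which binds J proteins of this compartment, fell from 7.55, 7.74 and 7.77 to 7.07, 7.14 and 7.12 in wild type (-0.58 ± 0.08, adjusted p = 4.19e-05) and by 0.54 ± 0.08 in knockout. Hsp90b1 (GRP94), the Hsp90 of this compartment, fell by 0.23 ± 0.06 and 0.19 ± 0.06, but neither call held after median centring (highest adjusted p = 0.2 and 0.526), and the knockout call was also lost after cyclic loess, in the 6 compared arrays and without knockout saline replicate 2 or R848 replicate 2 or 3. Dnajc3, which restrains Eif2ak3, had -0.32 in wild type (adjusted p = 0.0155, lost after median centring and without wild-type saline replicate 3, at -0.20, or R848 replicate 3, up to 0.129) and -0.15 in knockout. The disulfide isomerase Pdia3 had -0.22 (adjusted p = 0.0936) and -0.31 (adjusted p = 0.0186, lost after median centring and without knockout saline replicate 2 or R848 replicate 1, up to 0.163). The lectin chaperones Calr and Canx, the isomerase Pdia6, the J protein Dnajb11, the exchange factor Hyou1 and the secreted factor Manf, lay between -0.08 and 0.18 in both genotypes and did not pass. In knockout Pdia6, Dnajb11, Hyou1 and Manf were called higher after median centring (0.31, 0.32, 0.29 and 0.32, adjusted p = 0.0199, 0.00786, 0.005 and 0.00844), the last 3 of them also after cyclic loess. Manf was called higher in wild type under both scalings as well (0.28 and 0.25, adjusted p = 0.0204 and 0.0346).

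Degradation from the endoplasmic reticulum held the largest rise among the unfolded protein genes of the 45. Herpud1, which organises the ubiquitin ligase complex at the membrane, was 7.82, 7.92 and 8.14 with saline and 9.84, 10.06 and 9.94 with R848 in wild type, a rise of 1.99 ± 0.09 or 3.96-fold (adjusted p = 1.63e-10). In knockout it went from 7.98, 7.91 and 7.98 to 9.81, 9.74 and 9.87 (1.85 ± 0.09 or 3.61-fold, adjusted p = 3.47e-10). Every R848 array lay at least 1 unit above every saline array. Sel1l, the scaffold of the same complex, went from 9.08, 9.10 and 9.09 to 9.40, 9.34 and 9.33 (0.27 ± 0.07, adjusted p = 0.00496) and by 0.26 ± 0.07 in knockout (adjusted p = 0.00592). Its ligase Syvn1 (HRD1) rose by 0.35 ± 0.10 in wild type (adjusted p = 0.0142, lost without wild-type saline replicate 3 or R848 replicate 1, up to 0.0788) and had 0.23 in knockout (adjusted p = 0.1), where it was called with the replicate block over all 12 arrays (adjusted p = 0.042), after median centring (0.37, adjusted p = 0.00758) and after cyclic loess (0.29, adjusted p = 0.0328). Edem1, a lectin that passes misfolded glycoproteins to this complex, fell from 9.41, 9.47 and 9.44 to 9.06, 9.07 and 9.07 in wild type (-0.37 ± 0.07, adjusted p = 0.0003) and by 0.50 ± 0.07 in knockout (adjusted p = 1.9e-05), and its dimmer row moved the same way, by -0.33 and -0.32.

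**Figure D3:**
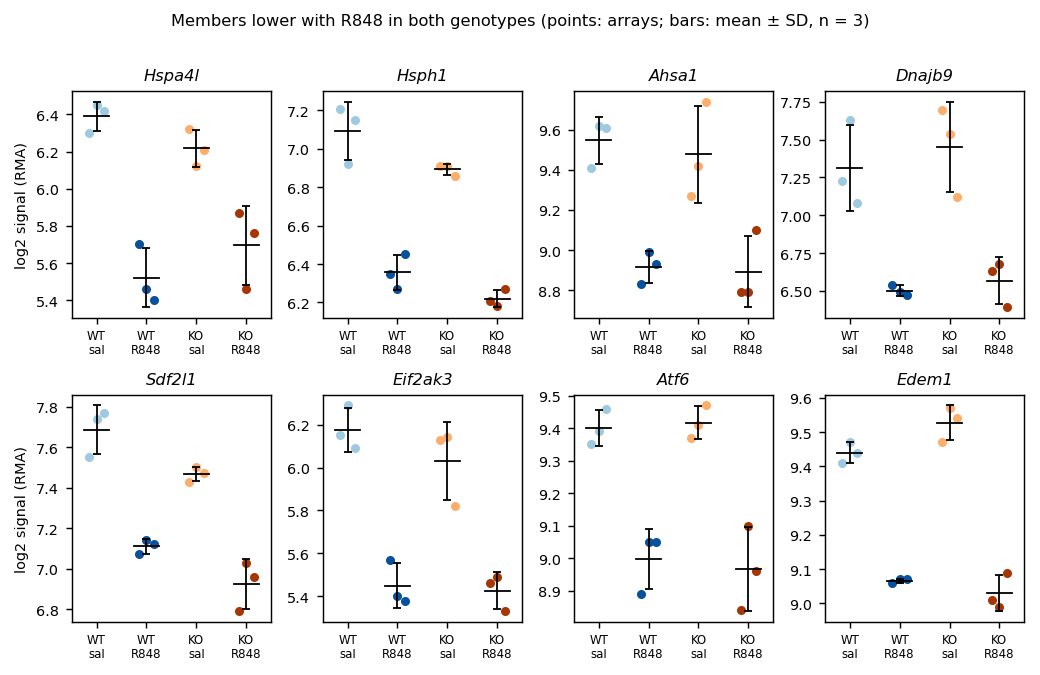
Log2 signal (y axis, own scale for each gene) on every array of the 4 groups (x axis; WT wild type, KO knockout, sal saline) for 8 genes called lower with R848 in both genotypes; points are arrays and bars the mean ± SD of 3. In every panel the R848 arrays of a genotype lie below its saline arrays, for Edem1 at 8.99 to 9.09 against 9.41 to 9.57.

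Read by promoter element, the 8 genes with the stress element had a median R848 difference of -0.08 in wild type (from -0.33 to 0.35, 1 higher and 3 lower) and 0.05 in knockout (from -0.19 to 0.23, 1 higher and 1 lower). After median centring 2 of the 8 were higher and 0 lower in wild type and 4 higher and 0 lower in knockout. Cyclic loess gave 1 higher and 3 lower in wild type, and 2 higher and 0 lower in knockout. The 31 genes without it had medians of 0.00 and -0.06 but ranged from -0.89 to 3.66. Of these 31, 11 were higher and 10 lower in wild type, and 10 and 11 in knockout. The 11 measured genes with an inverted heat shock pair included Hspa1a and Hspa1b and also Hsph1, Dnajb4, Fkbp4 and Eif2ak3. Of the 11, 3 were higher and 4 lower in each genotype. After median centring the counts were 4 and 4 in wild type and 4 and 3 in knockout, and after cyclic loess 3 and 4, and 4 and 4. The 28 genes without the pair had 9 higher and 9 lower in wild type, and 8 and 8 in knockout. Herpud1 and Chac1, which hold TTGCATCA, were higher in both genotypes. Among all 14079 tested genes 14.6% were higher and 23.6% lower in wild type, and 15.6% and 26.0% in knockout. With median centring 3821 were higher and 2319 lower in wild type, and 4402 and 2516 in knockout. With cyclic loess the counts were 2613 and 2773 in wild type, and 2900 and 2972 in knockout. The counts by element are descriptions of few genes, with no test.

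Further genes of the same pathways, listed apart from the 45, were called in both directions. Of 36 tested genes for cytosolic and mitochondrial folding, 10 were higher and 4 lower in wild type and 11 higher and 4 lower in knockout. That is 38.9% and 41.7% called, near the 38.3% and 41.6% of all tested genes. Dnajc21, which works in ribosome assembly, rose by 0.74 and 0.79, the Hsp40 gene Dnaja2 by 0.56 and 0.84 and the Hsp90 kinase adaptor Cdc37 by 0.54 and 0.64, while Zfand2a, a stress-inducible zinc finger gene, changed by -0.88 and -1.10, and Ier5, which activates Hsf1, by -0.86 and -0.59. Some subunits of the chaperonin TRiC were among the higher ones, with Cct3 at 0.46 and 0.52 and Cct8 at 0.44 and 0.43. Other subunits moved less. Cct2 had means of 10.62 with saline and 10.73 with R848 in wild type, and 10.52 and 10.63 in knockout. Cct5 had 8.34 and 8.42 in wild type, and 8.09 and 8.28 in knockout. Of 41 tested genes for the endoplasmic reticulum and related stress, 9 were higher and 13 lower in wild type and 8 and 13 in knockout (53.7% and 51.2% called). Nupr1, a stress-induced chromatin factor, rose by 2.29 and 2.38. The adaptor Traf2, which binds Ern1 and TNF receptors, rose by 1.69 and 1.86. Ppp1r15b, the constitutive counterpart of Ppp1r15a, rose by 1.47 and 1.38. Crebrf, a negative regulator of the response, fell by 0.98 and 1.37.

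The calls were largely shared by the genotypes. Of the members higher in wild type, 9 of 12 were also higher in knockout (75% of the wild-type list and 81.8% of the knockout list). Of those lower in wild type, 12 of 14 were also lower in knockout (85.7% and 92.3%), and 0 were called in opposite directions. The 2 contrasts share no arrays but share 1 estimate of spread per gene. Among all tested genes 38.3% were called in wild type and 41.6% in knockout. How many of those calls were shared was not computed, so the sharing cannot be read as particular to this set. The interaction term, set to compare both R848 responses, passed for 0 of 45 members (limma) and for 0.0142% of all tested genes, and 3 members (6.67%) had an unadjusted p under 0.05, near the 4.93% of all tested genes. Of the 45 interactions 41 lay within 0.25 of zero, with a median SE of 0.12.

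Creld2, a secreted chaperone-like protein of the endoplasmic reticulum, had the smallest interaction p. It was 7.90, 8.04 and 8.18 with saline and 7.63, 7.73 and 7.77 with R848 in wild type (-0.33 ± 0.08, adjusted p = 0.0057, and 0.0729 after median centring). In knockout it was 7.56, 7.75 and 7.64, then 7.73, 7.83 and 7.82 (0.14 ± 0.08, adjusted p = 0.2, and 0.0135 at 0.29 after median centring). The interaction of 0.47 ± 0.12 (95% interval 0.22 to 0.73) did not pass over all genes (adjusted p = 0.746). All wild-type saline arrays were above all others, and the remaining 3 groups lay within 7.56 to 7.83. Next came Hspa4l (0.35 ± 0.15) and Hspa1b (0.66 ± 0.29), both with an adjusted p of 0.974, then Hspb1 (-0.23) and Hspd1 (0.23), both with 0.986.

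Genotype differences within a treatment were small. With saline 1 of 45 members passed (2.22%, against 0.334% of all tested genes), and with R848 0 passed (0.135% of all tested genes), with 12 and 9 members (26.7% and 20.0%) at an unadjusted p under 0.05, against 12.6% and 8.74% of all tested genes. Groups did not overlap for 15 members with saline (16.1% of all tested genes) and for 10 with R848 (13.8%). The differences with saline had a median of -0.11 and were negative for 32 of 45 members, beside a median of -0.01 over all tested genes, and with R848 the median was -0.02. The range was -0.49 to 0.40 with saline and -0.32 to 0.45 with R848.

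Hspd1, the mitochondrial Hsp60, was the member that passed with saline. It was 7.59, 7.34 and 7.54 in wild type and 7.03, 7.01 and 6.95 in knockout (-0.49 ± 0.08, adjusted p = 0.0178). With R848 it was 7.5, 7.5 and 7.46 against 7.30, 7.10 and 7.26 (-0.27 ± 0.08, adjusted p = 0.285). Knockout arrays lay below wild-type arrays in both treatments. The saline call ended in a fit of the 6 compared arrays and without wild-type saline replicate 1 or 3 or knockout saline replicate 2 (highest adjusted p = 0.1). Averaged over treatments the difference was -0.38 ± 0.06 (adjusted p = 0.0069), which passed in every alternative run. Hspe1, its partner across the shared promoter, had -0.20 (adjusted p = 0.107), and Hspa9 -0.18.

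Averaged over treatments 2 of 45 members passed (4.44%, against 1.78% of all tested genes), Hspd1 and Hspa1a. The average for Hspa1a was 0.35 ± 0.07 (adjusted p = 0.0184), with knockout arrays above wild-type arrays at 6.60 to 6.72 against 6.16 to 6.47 with saline and 7.45 to 7.64 against 7.13 to 7.31 with R848. That call ended without wild-type R848 replicate 3 (adjusted p = 0.0503). Its copy Hspa1b had 0.12 (adjusted p = 0.754), from -0.21 with saline and 0.45 with R848, with overlapping arrays in both treatments. Hsf2 was lower on all knockout arrays of each treatment, at 6.09 to 6.21 against 6.31 to 6.56 with saline and 5.79 to 6.08 against 6.14 to 6.39 with R848, with an average of -0.29 ± 0.07 that did not pass (adjusted p = 0.0527). Fkbp4 (-0.23, adjusted p = 0.0649) and Hspa4 (-0.19, adjusted p = 0.0674) followed.

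**Figure D4:**
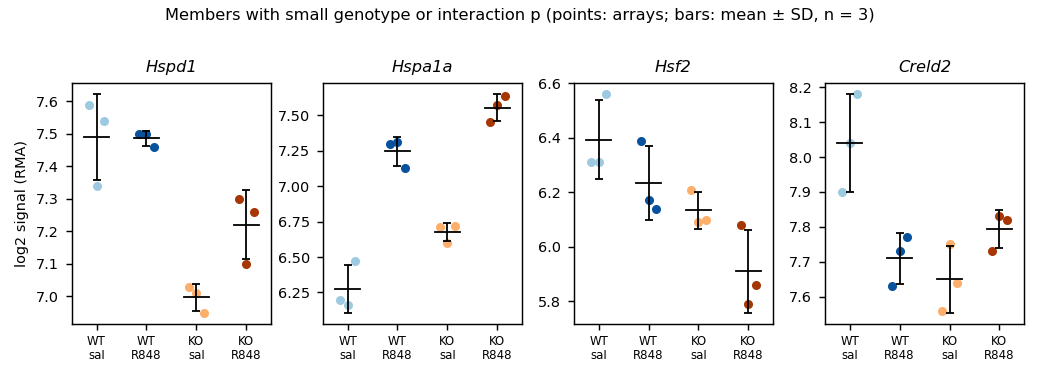
Log2 signal (y axis, own scale for each gene) on every array of the 4 groups (x axis; WT wild type, KO knockout, sal saline) for 4 genes with small genotype or interaction p; points are arrays and bars the mean ± SD of 3. Knockout arrays lie below wild-type arrays in both treatments for Hspd1 and Hsf2 and above them for Hspa1a, while Creld2 is highest in wild-type saline, at 7.90 to 8.18.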

How the data were processed

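Total RNA was read on 12 Affymetrix Mouse Gene 2.1 ST arrays. Per the submitters' processing notes, the deposited log2 values were made with Affymetrix Expression Console and RMA, which corrects background, equalises array distributions and summarises probes. Their versions are not named in the labels, and a change in total RNA per cell is not visible in such values. Scanner files and array dates were not used here, so batches could not be checked.

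Rows with 1 platform symbol (23521 of 34472) were used, 1 row per gene. A gene was tested if above the 40th percentile of these rows (4.31 to 4.35) on at least 3 arrays, which left 14079 genes. limma 3.58.1 (R 4.3.3; lmFit and eBayes, a mean per group, 8 residual degrees of freedom) was fitted to all genes at once, and p-values were adjusted by Benjamini-Hochberg within each contrast, threshold 0.05. Intervals of 95% use limma's moderated t distribution. The fit was tested on simulated data. No label ties the replicates to separate animals or cultures. The p-values therefore reflect only how far these arrays scatter, possibly for technical reasons, and the number of arrays limits the precision. The replicate block was fitted over all 12 arrays. Same-numbered knockout saline and R848 arrays deviated together (correlations 0.272, 0.172 and 0.275), a pairing taken from the data, where each had to exceed 0.1. Other groups did not meet it.

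Every member could be named, and in each R848 contrast up to 4 genes of each further list with the largest called change. Cct2, Cct3, Cct5 and Cct8 were added after their values were seen. The members, lists, elements and tests were chosen with earlier results of these data known. The second stress element was added after the printed promoters had been read. Alternatives were an intensity trend with robust spread, no or a stricter filter (60th percentile), median centring, cyclic loess, the replicate block, the mean of all rows of a gene, the 6 compared arrays alone, and leaving out each array.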

Additional observations from a re-analysis of the deposited data

How the results depend on the processing

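No called member reversed its direction under any alternative run. Of the 26 members called in wild type, 18 kept the call under every alternative that tested them, and of the 24 called in knockout, 18 did. Dnajb4, counted among the 18 in both genotypes, was tested in 19 of the 20 alternatives, since it did not pass the stricter filter. The count of members higher with R848 in knockout, 11, became 23 after median centring and 19 after cyclic loess. The single member lower in saline knockout cells became 0 in a fit of the 6 compared arrays and 0 to 1 when single arrays were left out. With the replicate number as a block it became 2, Creld2 being added (adjusted p = 0.0321), and the 1 member lower in knockout on average over treatments became 4, with Hsf2, Fkbp4 and Sdf2l1 added (adjusted p = 0.0341, 0.0473 and 0.0469). The block also added Pdia3 to the members lower in wild type (adjusted p = 0.0485) and, in knockout, Bag3 and Syvn1. Among other same-numbered arrays the correlations, from -0.12 to 0.328, did not all exceed 0.1 in any comparison. With 3 values per comparison this does not show that those samples were unpaired. The count lower on average was 2 with the stricter filter and 1 to 2 when single arrays were left out, and the count higher on average was 0 to 1. The cause was not tested. With 3 arrays per group the interactions had a median SE of 0.12, which limits how small a difference between the responses could be called.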
